A study of Mus musculus with 10 samples.

Results

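Immunoglobulin variable (V) segments are the germline genes that encode most of the antigen-binding domain of an antibody. All genes whose symbol starts with Ighv (heavy chain), Igkv (kappa light chain) or Iglv (lambda light chain) were taken, by name only, which gave 218 of the 22607 genes measured. Of these, 115 were Ighv, 100 Igkv and 3 Iglv. They were followed through 10 polyadenylated RNA libraries of sorted antigen-presenting cells. All mice were wild-type C57BL/6, 8 weeks old, and the labels name no agent. The first 4 libraries, 2 colonic and 2 splenic, hold MHCII+ cells, sorted on the class II molecules that show antigen to helper T cells. The other 6 came from colonic cells sorted on the integrins CD11b and CD11c, as 2 libraries each of CD11c+, CD11b+ and CD11b+CD11c+ cells. The sources used here give no other detail of the gates. The MHCII+ and the integrin-sorted libraries were numbered and labelled apart, so between them gate and set of libraries cannot be told apart. The sample titles abbreviate these populations, so the tissue and gate of each group rest on reading them beside the series title and its design text. Both splenic titles carry the same replicate number, so splenic libraries 1 and 2 are numbered in accession order. Nothing in the labels ties the 2 libraries of a group to different animals. The p-values therefore set differences only against the spread of such libraries, which may be technical.

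In a developing B cell, a heavy chain V segment is cut and joined to a D and a J segment, and a light chain V segment to a J segment, so that each B cell and its descendants carry their own joined pair. B cells place the product in the membrane, and plasma cells, which descend from them, secrete it in large amounts and hold much immunoglobulin mRNA. The lamina propria of the colon is known as a site of plasma cells that make immunoglobulin A. None of the 5 gates was set on a B lineage marker that the labels name, and MHC class II is itself made by B cells.

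Reads were assigned to germline sequences, so reads across a join or with mutated bases may not have been counted, and the share of such reads was not tested. The files gave 12806139 to 41769042 estimated counts a library. Genes tied to the gates were present. Cd74, the invariant chain of MHC class II, stood at group means of 7140.5 to 12725 CPM (counts scaled by TMM to a common library size). It defines no gate itself, and B cells make MHC class II too, so this level does not mark myeloid cells. Itgam, which encodes CD11b, stood at 34.2 CPM in CD11c+ cells against 763 and 814 CPM in CD11b+ and CD11b+CD11c+ cells. Itgax, which encodes CD11c, was present in all groups (408 to 1094 CPM) and stood at 539 CPM in the CD11b+ cells. Markers of other cell types were also present. The summed level of 9 epithelial genes was 5501 and 5207 CPM in the colonic MHCII+ libraries, 505 to 1304 CPM in the 6 subset libraries and 21.8 and 25.5 CPM in the splenic ones.

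The 115 Ighv segments lie between positions 113578504 and 116000461 of mouse chromosome 12 (mm10), 113 of them on the minus strand. The 100 Igkv segments lie between 67555497 and 70704177 of chromosome 6, 38 on the plus and 62 on the minus strand. The 3 Iglv segments lie between 19085017 and 19260859 of chromosome 16, on the minus strand. Their coding lengths were 278 to 394 bases, and all 218 annotated V genes with these symbols that are not pseudogenes were in the files. The letters that most V segments share stand near their end, where the coding sequence reaches a conserved cysteine just before the join. The motif TANTNNTGN (N is any base), read on the coding strand within the last 45 coding bases, occurred in 108 of 115 Ighv (93.9%), 97 of 100 Igkv (97%) and 2 of 3 Iglv segments, against 507 of 22250 other genes (2.28%). The match ended a median of 6 bases before the end of an Ighv segment and 23 bases before the end of an Igkv segment. The last 120 bases of segments that the results turn on are given 5′ to 3′ on the coding strand, each within 1 exon, with this match in capitals. They come from the GENCODE M21 transcripts and lie at chr12:115920279-115920398 (Ighv1-81), chr12:114788372-114788491 (Ighv1-26), chr12:114991108-114991227 (Ighv1-47), chr6:69764523-69764642 (Igkv12-46), chr6:70335841-70335960 (Igkv6-20) and chr16:19085017-19085136 (Iglv1), all on the minus strand. Igkv6-20 has no match in the window and is shown in lower case throughout.
Ighv1-81: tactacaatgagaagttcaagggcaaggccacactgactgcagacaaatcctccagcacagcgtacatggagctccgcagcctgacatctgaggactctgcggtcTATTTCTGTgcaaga
Ighv1-26: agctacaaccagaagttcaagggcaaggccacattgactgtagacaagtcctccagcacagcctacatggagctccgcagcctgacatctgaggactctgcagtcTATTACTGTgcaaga
Ighv1-47: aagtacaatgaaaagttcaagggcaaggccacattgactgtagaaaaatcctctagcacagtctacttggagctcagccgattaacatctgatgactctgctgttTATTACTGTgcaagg
Igkv12-46: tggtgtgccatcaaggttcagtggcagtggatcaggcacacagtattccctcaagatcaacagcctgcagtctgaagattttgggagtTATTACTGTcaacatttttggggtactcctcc
Igkv6-20: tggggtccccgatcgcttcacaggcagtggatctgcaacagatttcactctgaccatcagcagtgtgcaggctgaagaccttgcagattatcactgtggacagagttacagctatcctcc
Iglv1: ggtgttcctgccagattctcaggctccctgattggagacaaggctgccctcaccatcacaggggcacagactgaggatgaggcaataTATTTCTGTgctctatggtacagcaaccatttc

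How well reads can tell segments apart differs between members. Over all stretches of 31 bases, a median of 58.2% of a segment's stretches occurred in no other V segment. Genes other than the 218 members were not searched. For 87 of 218 members the share was under 50%, and for 3 members (Ighv1-62-2, Ighv1-71 and Ighv1-72) it was under 10%. Ighv1-72 had 2.18% of its stretches to itself and shared 77.6% with Ighv1-62-3, so its level is uncertain. Among other segments that lead a library, Ighv1-26 had 38.3%, Igkv6-20 24.9% and Igkv4-55 19.3% to themselves, so these levels are uncertain as well. The leading kappa segments Igkv1-110 and Igkv1-117 are a close pair, and 58.4% of the stretches of either occur in the other. Their last 270 bases, at chr6:68270998-68271267 and chr6:68121558-68121827 on the plus strand, were 96.7% identical and are printed with their 9 differences in capitals, so that a read between these letters fits both genes.
Igkv1-110: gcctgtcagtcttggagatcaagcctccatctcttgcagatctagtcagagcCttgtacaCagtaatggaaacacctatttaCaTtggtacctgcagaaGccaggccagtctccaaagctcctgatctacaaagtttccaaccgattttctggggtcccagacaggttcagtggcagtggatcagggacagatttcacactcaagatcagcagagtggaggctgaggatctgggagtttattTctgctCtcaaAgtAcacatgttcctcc
Igkv1-117: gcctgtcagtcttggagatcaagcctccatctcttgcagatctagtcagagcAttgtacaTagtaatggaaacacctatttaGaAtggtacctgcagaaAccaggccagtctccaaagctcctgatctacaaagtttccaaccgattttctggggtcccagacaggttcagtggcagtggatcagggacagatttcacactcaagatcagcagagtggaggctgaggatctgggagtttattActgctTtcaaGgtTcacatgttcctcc

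V segments took a larger share of the counts in the colon than in the spleen, and the largest share among CD11c+ cells. All 218 together held 0.635% and 0.637% of the counts in the colonic MHCII+ libraries and 0.0674% and 0.0773% in the splenic MHCII+ libraries. In CD11c+ cells they held 1.72% and 2.23%, in CD11b+ cells 0.913% and 0.690%, and in CD11b+CD11c+ cells 0.653% and 0.495%. The colonic share was thus 8.79 times the splenic one, and that of CD11c+ cells 2.46 times that of CD11b+ and 3.44 times that of CD11b+CD11c+ cells. The libraries of the groups in each of these ratios did not overlap, but an exact two-sided permutation test of 2 against 2 libraries cannot go below p = 0.33. In TPM, which counts per length, the shares were larger, from 0.249% ± 0.0209 (SD, n = 2) in splenic to 5.72% ± 0.970 (SD, n = 2) in CD11c+ cells. In bulk RNA, fewer cells of a type and less RNA per cell cannot be told apart.

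**Figure D1:**
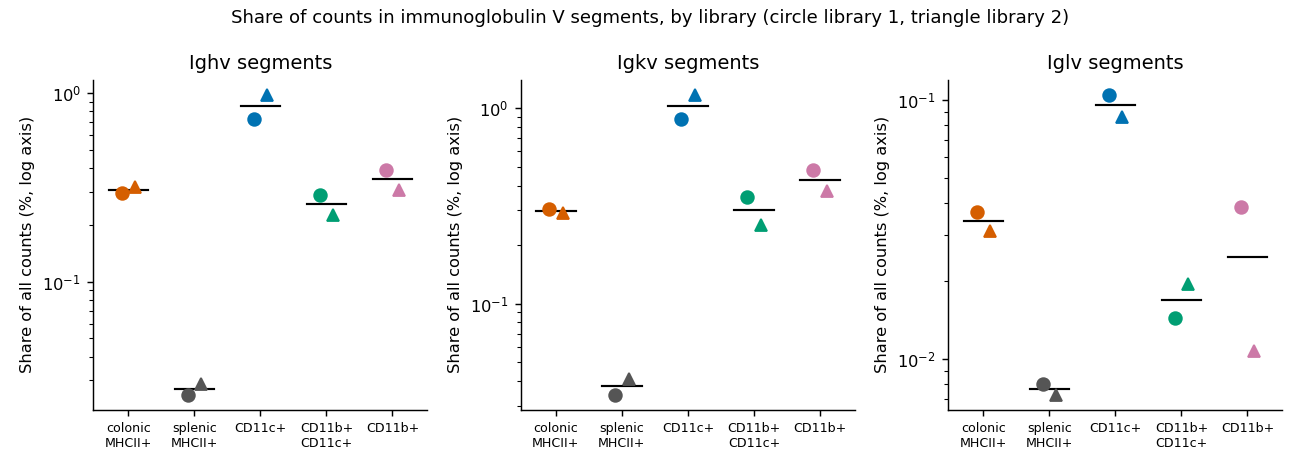
Share of all counts (%, log axis) that fell on Ighv, Igkv and Iglv segments in each of the 10 libraries; circles are library 1, triangles library 2 and lines the group means. The splenic MHCII+ libraries are lowest and the CD11c+ libraries highest in each class, and the CD11b+ libraries lie farthest apart in Iglv (0.0386% and 0.0108%).

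Each class was higher in the colon. Heavy chain segments held 0.305% ± 0.0152 of counts in colonic and 0.0270% ± 0.00252 in splenic MHCII+ cells (SD, n = 2 each). Kappa segments held 0.297% ± 0.00980 and 0.0377% ± 0.00502. Lambda segments held 0.0342% ± 0.00402 and 0.00767% ± 0.000539. The colonic share was 11.3, 7.87 and 4.45 times the splenic one for heavy, kappa and lambda. As a share of light chain V counts, lambda was highest in the spleen (19.1% and 15.0%). It stood at 10.9% and 9.75% in colonic MHCII+ cells and ranged from 2.79% to 10.6% in the 6 subset libraries.

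Levels of V and constant segments were set side by side on the TPM scale, which is per length. Ighv segments summed to 1.21 ± 0.157 times the heavy chain constant genes in colonic MHCII+ cells and 0.849 ± 0.0182 times in splenic ones (SD, n = 2 each). In CD11c+, CD11b+ and CD11b+CD11c+ cells the ratio was 1.46 ± 0.00641, 1.47 ± 0.0416 and 1.51 ± 0.0424 (SD, n = 2 each). Igkv segments summed to 0.622 to 0.736 times Igkc, the kappa constant gene, over the 10 libraries. The leading heavy chain constant gene differed by tissue. Igha, the constant region of immunoglobulin A, made up 97.5 to 98.6% of heavy constant TPM in the 8 colonic libraries and 3.34% and 1.92% in the splenic ones, where Ighm, the constant region of immunoglobulin M, made up 82.1% and 81.7%.

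Most segments were seen in each group, although a few took a large part of the reads. At 10 counts or more, 154 and 157 of 218 members were detected in the colonic MHCII+ libraries and 174 and 173 in the splenic ones. The number was 172 in both CD11c+ libraries, 165 and 167 in CD11b+ and 154 and 153 in CD11b+CD11c+ cells. Splenic cells thus showed the most segments at the lowest share of counts. At a minimum of 1 CPM, which asks for more counts in deeper libraries, the order turned, with means of 126.5 in splenic and 146 to 167.5 in the colonic groups. Libraries differ in V counts, so each was also thinned, by calculation, to 24800 V counts, the number in the smallest. At that depth 205 and 197 members were expected to have at least 1 count in the splenic libraries, 161 and 166 in the colonic MHCII+ ones and 164 to 176 in the subsets. Before thinning, 206 and 197 members had at least 1 count in the splenic libraries, 174 and 175 in the colonic MHCII+ ones and 174 to 198 in the subsets. In all 10 libraries, 114 members reached 10 counts, 22 did so in none, and 82 in some. The 7 members without a count in any library were Ighv5-8, Ighv7-2, Ighv16-1, Ighv1-16, Ighv1-24, Igkv1-131 and Igkv8-26.

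Evenness was measured as the effective number of segments (inverse Simpson), the number of equally used segments that would give the same chance of drawing the same segment from a pair of reads. Use was most concentrated in colonic MHCII+ cells, although against the subsets this mixes gate with set of libraries. Their Ighv use amounted to 17.6 and 20.8 effective segments, against 31.2 and 43.2 in splenic cells. Their Igkv use amounted to 16.0 and 16.3, against 34.8 and 41.4. In both classes the colonic and splenic libraries did not overlap. CD11c+ cells had 26.1 and 24.6 effective Ighv segments, CD11b+CD11c+ cells 34.6 and 36.8, and CD11b+ cells 42.0 and 29.1. For Igkv these were 28.6 and 26.5, 26.4 and 31.2, and 30.2 and 22.8, so the 3 subsets overlapped in kappa use. The CD11b+ libraries differed from each other by more than the means of the subsets did. The 5 most used Ighv segments took 39.1% and 40.4% of Ighv counts in colonic MHCII+ cells and 27.7% and 23.9% in splenic ones.

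**Figure D2:**
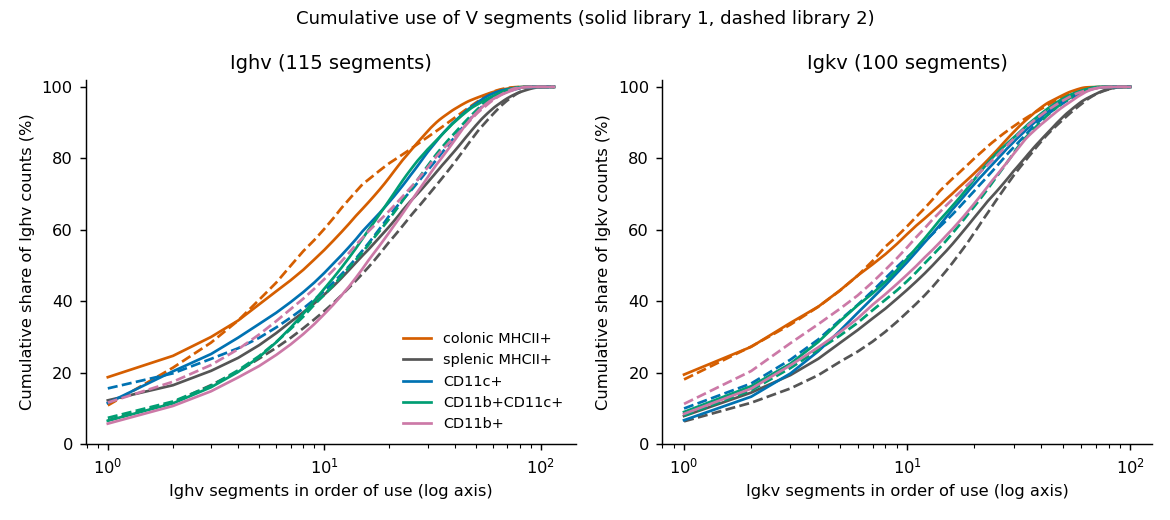
Cumulative share (%) of Ighv and Igkv counts against segments in order of use (log axis), 1 line a library, solid for library 1 and dashed for library 2. The colonic MHCII+ lines start highest in Igkv, where the leading segment took 19.5% and 18.1%, and the first 10 segments took the least in the splenic libraries there (43.2% and 36.9%).

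Which segments led a library was in part a matter of the library. Use is given as a share of the counts of a class. The leaders were 347 to 365 coding bases long, and TPM gave the same leader in 9 of 10 libraries for Ighv and 10 of 10 for Igkv. In colonic MHCII+ library 1, Ighv1-47 took 18.7% of Ighv use and Igkv12-46 took 19.5% of Igkv use. In library 2 of the same group they took 0.469% and 0.720%, and Ighv10-1 (10.8%) and Igkv1-117 (18.1%) led instead. By TPM the Ighv leader of library 2 was Ighv1-72 (10.8%), whose reads are hard to assign. In CD11c+ cells, Igkv6-20, named after its values were seen, took 0.327% of Igkv use in library 1 and 9.97% in library 2. Igkv4-55 took 6.69% and 0.409% there, and Ighv1-75 took 8.87% and 1.21% of Ighv use. Only 24.9% of the stretches of 31 bases of Igkv6-20, 19.3% of Igkv4-55 and 38.9% of Ighv1-75 occur in no other V segment. Their levels are therefore uncertain. In CD11b+ cells, Ighv3-6 took 3.11% and 11.6% of Ighv use.

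Other leaders were shared by the libraries of a group. Ighv1-81 led both CD11c+ libraries (11.5% and 15.6%) and both splenic libraries (12.2% and 6.62%). Ighv1-26 led both CD11b+CD11c+ libraries (6.55% and 7.35%) and took 5.73% and 5.85% in CD11b+ cells. Among kappa segments, Igkv1-110 held 7.76% and 9.21% in the colonic MHCII+ libraries, second in both. Igkv8-27 held 6.54% and 5.20% in the splenic libraries, again second in both. Igkv10-96 led CD11b+CD11c+ library 1 (8.99%) and held 6.23% in library 2.

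V segments differed between libraries of 1 group more often than other genes did. Members with at least 20 CPM in a library were counted as far apart if their CPM, each raised by 0.5, differed more than 4-fold. In colonic MHCII+ cells this held for 23 of 82 members, while 0.340% of all genes did so, and those 23 were all but 2 of the 25 such genes. In CD11b+ cells it held for 19 of 114 members against 0.289% of all genes, and members made up 19 of 20. In CD11b+CD11c+ cells it held for 14 of 99 members against 0.422% of all genes, and they made up 14 of 30. In CD11c+ cells it held for 24 of 135 members against 1.13% of all genes, and they made up 24 of 79. In splenic cells 6 members reached 20 CPM and 1 of them was far apart, against 0.0699% of all genes. The median fold between the libraries of a group was 1.37 to 2.53 over these members and 1.07 to 1.10 over all genes. The edgeR fits draw the spread of a gene in part from all genes. Whether this sets it too low for V segments was not tested.

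**Figure D3:**
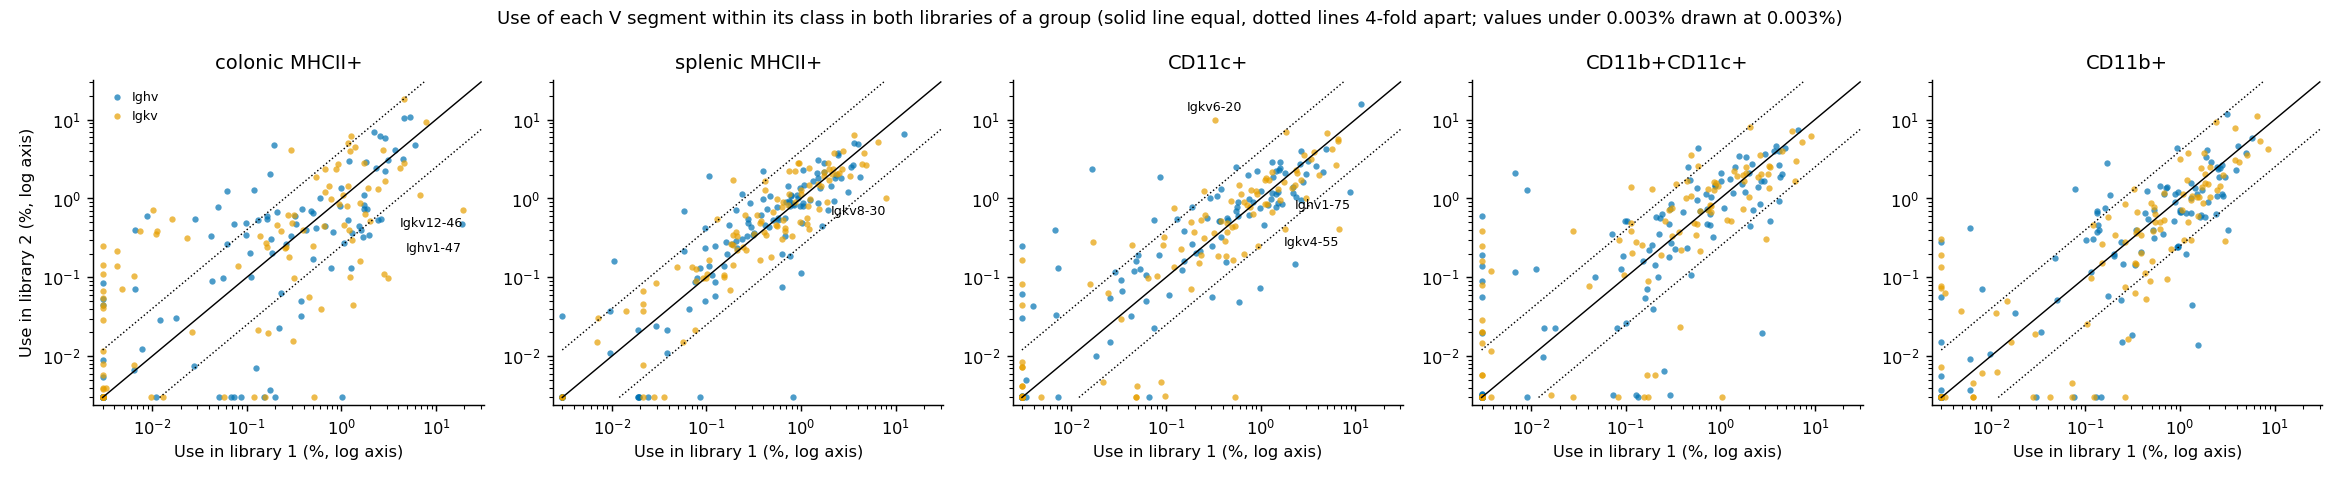
Use (% of the class, log axes) of each Ighv and Igkv segment in library 1 against library 2 of each group; the solid line marks equal use and dotted lines 4-fold differences, and leading segments more than 4-fold apart are named. The colonic MHCII+ points scatter most (23 of 82 members at 20 CPM over 4-fold apart). The median fold over members at 20 CPM was lowest in the splenic libraries (1.37).

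Segment use was compared between all pairs of libraries by the Bray-Curtis distance, which is 0 for the same use and 1 where no segment is shared. The 5 pairs within a group lay between 0.242 and 0.429 for Ighv and between 0.236 and 0.497 for Igkv. The splenic libraries were the closest pair within a group in both classes (0.242 and 0.236). The colonic MHCII+ libraries were the farthest within a group in both (0.429 and 0.497), about as far from each other as from other groups (0.431 to 0.519 for Ighv and 0.391 to 0.513 for Igkv). Among all 45 pairs the smallest distance joined different subsets, CD11b+ library 1 and CD11b+CD11c+ library 2 (0.194 for Ighv and 0.149 for Igkv). CD11c+ library 2 was close to both of these (0.220 and 0.208 for Ighv, 0.212 and 0.199 for Igkv). CD11c+ library 1 was closest to CD11b+CD11c+ library 1 (0.263 for Ighv and 0.240 for Igkv). The CD11c+ libraries lay 0.282 (Ighv) and 0.279 (Igkv) from each other, farther than from these libraries of other subsets. Over the 12 pairs of libraries from different subsets, same-numbered pairs had a median Ighv distance of 0.311 and the others of 0.338. Between CD11b+CD11c+ and CD11c+ cells, same-numbered pairs were the closer ones. They lay at 0.263 and 0.208 against 0.358 and 0.341 for Ighv, and at 0.240 and 0.199 against 0.315 and 0.304 for Igkv. The closest pairs of CD11b+ cells with each other subset had different numbers. Whether libraries of different subsets share mice was not tested, and the labels do not say.

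**Figure D4:**
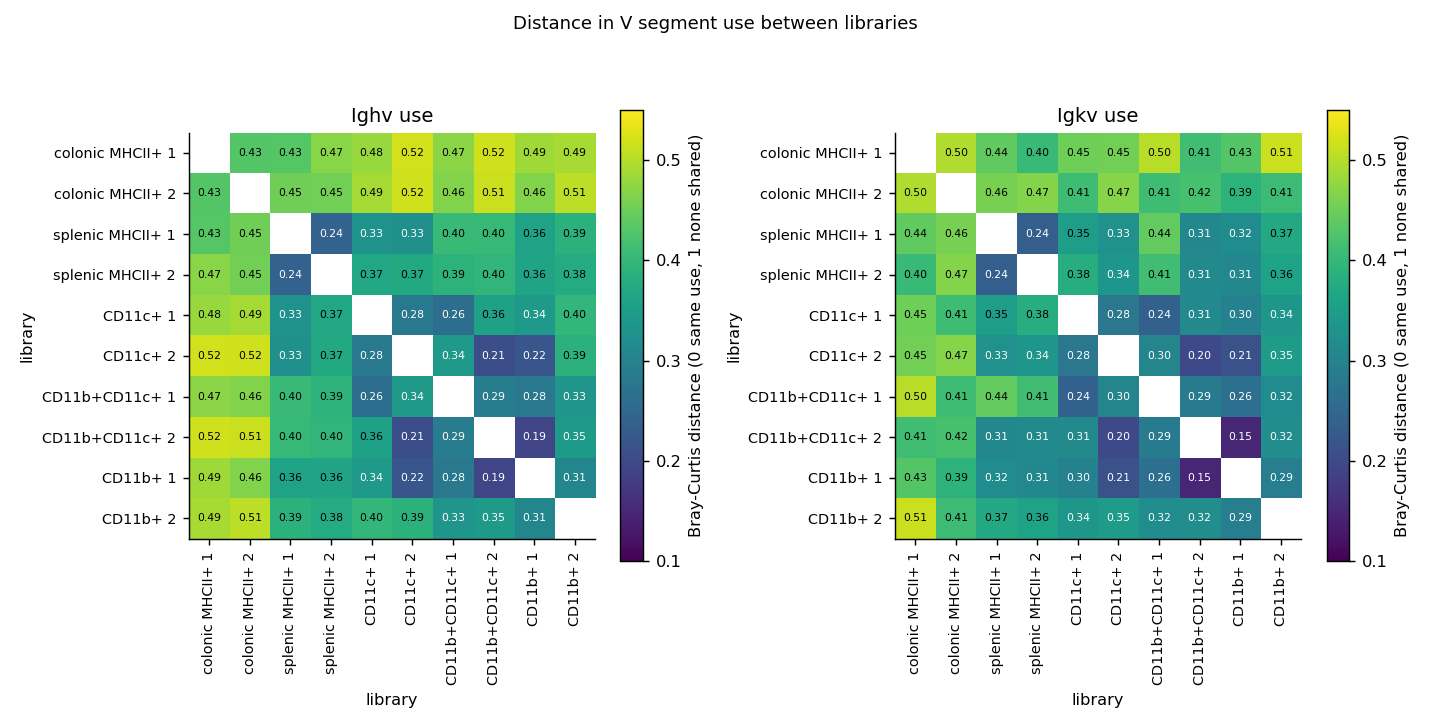
Bray-Curtis distance in Ighv (left) and Igkv (right) use between the 10 libraries, darker for closer use. The darkest cells join CD11b+ library 1 with CD11b+CD11c+ library 2 (0.194 and 0.149), and the rows of the colonic MHCII+ libraries are light throughout.

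By family, Ighv1, which has 54 members in the files, took the largest part of heavy chain use in each library, from 43.8% (colonic MHCII+ library 2) to 66.8% (CD11c+ library 1). Ighv11, a pair of genes known from B-1 cells, a self-renewing B cell lineage, had no count in either colonic MHCII+ library and took 2.11% and 1.60% of Ighv use in the spleen. In the subset libraries Ighv11 took 0.00325% to 0.424%. Igkv14, 4 genes, took 0.614% and 0.596% of kappa use in colonic MHCII+ cells, 5.31% and 3.81% in the spleen and 3.38 to 6.35% in the subsets. Igkv1, 10 genes that include the pair printed above, took 13.8% and 29.0% in the colonic MHCII+ libraries and 13.4 to 20.3% in the other 8. These families are named after their values were seen.

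Along the heavy chain locus the segments were divided by distance from Ighm into a nearest, a middle and a farthest set. The farthest 38 segments took 49.8% and 44.2% of Ighv use in CD11c+ cells and 40.8% and 39.0% in the spleen. They took 25.3% and 35.4% in colonic MHCII+ cells, 37.0% and 33.6% in CD11b+CD11c+ cells and 36.1% and 27.0% in CD11b+ cells. Ighv1-81 alone, which lies in the farthest set, accounts for 11.5% and 15.6% of Ighv use in CD11c+ cells. For Igkv, by distance from Igkc, the nearest 34 segments took 25.3% to 40.0% over the 10 libraries. The 62 segments on the minus strand took 54.4% to 67.1%.

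The comparison of colonic with splenic MHCII+ cells asked which V segments differ by tissue at the same gate. Members were mostly higher in the colon: 106 of the 172 tested were called higher and 5 lower, at an adjusted p under 0.05 by the quasi-likelihood test of edgeR, while 31.6% of all genes were called higher and 28.7% lower. The 46 other members did not pass the filter on low counts. The median log2 fold change was 2.64 over the members and 0.02 over all genes tested. Of 85 Ighv segments 55 were higher and 3 lower, of 84 Igkv segments 50 were higher and 1 lower, and of the 3 Iglv segments 1 was higher and 1 lower. Leaving out a library gave 89 to 112 higher. It gave 11 and 17 lower without colonic library 1 and 2, in place of 5.

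**Figure D5:**
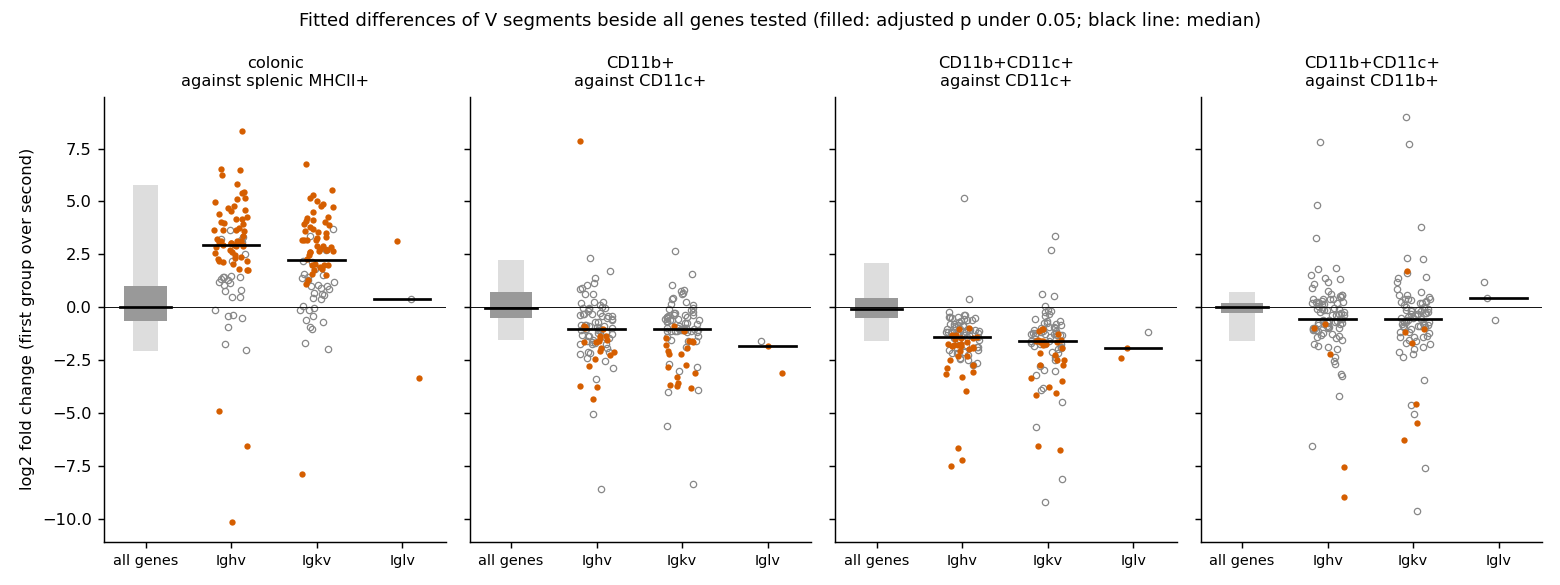
Fitted log2 fold changes of the tested members by class in the 4 comparisons, filled where the adjusted p was under 0.05, beside all genes tested (dark bar 25th to 75th percentile, light bar 5th to 95th, black line median). The members centre above 0 in colonic against splenic cells (median 2.64) and below 0 in both subsets against CD11c+ cells (-1.06 and -1.50). The 3, 3, 3 and 6 members without a count in 1 of the groups stand at values that depend on the prior count of edgeR.

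Among the heavy chain segments named by rule, those with the largest rise were Ighv1-47, Ighv1-77 and Ighv5-9-1. Ighv1-47 stood at 525 and 14.0 CPM in the colonic libraries and 0.723 and 0.959 CPM in the splenic ones. Both colonic libraries were above both splenic ones, which the rule for the largest rises required, but they were far from each other. The log2 fold change was 8.34 ± 1.78 (SE, adjusted p = 0.00702). Without colonic library 1 it was 4.05, without colonic library 2 it was 9.29, and limma on log2(TPM + 1) gave 6.13 (adjusted p = 0.0509). Ighv1-77 stood at 48.3 and 32.8 CPM against 0.372 and 0.508 CPM (6.55 ± 0.30, adjusted p = 1.07e-05). Ighv5-9-1 stood at 86.4 and 92.1 CPM against 0.635 and 1.41 CPM (6.50 ± 0.30, adjusted p = 1.13e-05), and at 7.13 without splenic library 2. These last segments were even between the colonic libraries, unlike Ighv1-47. Only 29.9% of the stretches of 31 bases of Ighv1-77 occur in no other V segment, so its level is uncertain.

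The most used heavy chain segments were higher in the colon as well. Ighv10-1 stood at 148 and 324 CPM against 8.11 and 6.97 CPM. Its log2 fold change was 4.99 ± 0.40 (adjusted p = 0.000102), and 4.28 without colonic library 2. Ighv1-81 stood at 103 and 121 CPM against 28.0 and 17.2 CPM (2.32 ± 0.23, adjusted p = 0.000255). Ighv1-26 stood at 81.6 and 173 CPM against 8.30 and 13.0 CPM (3.61 ± 0.41, adjusted p = 0.000428), and at 2.94 without colonic library 2. Ighv3-6 and Ighv1-18 rose by log2 fold changes of 3.66 and 3.08. Ighv1-53 stood at 74.1 and 16.4 CPM against 9.22 and 12.8 CPM, and its call (2.06, adjusted p = 0.0263) was lost without colonic library 1 (0.57, adjusted p = 0.0824), without splenic library 1 (adjusted p = 0.0780) and by DESeq2 (0.0585). Ighv7-1 stood at 54.3 and 10.3 CPM against 5.61 and 9.37 CPM, and its call (2.13, adjusted p = 0.0357) was lost under the same settings (0.286, 0.107 and 0.0795), with a log2 fold change of 0.45 without colonic library 1 and 2.86 without colonic library 2.

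Among kappa segments, Igkv1-110 was the most even. It stood at 225 and 253 CPM in the colonic libraries against 14.2 and 13.9 CPM in the splenic ones (log2 fold change 4.10 ± 0.12, adjusted p = 2.69e-06). Its near copy Igkv1-117 stood at 132 and 497 CPM against 11.2 and 23.8 CPM (4.20 ± 0.70, adjusted p = 0.00238). Without colonic library 2 this was 2.91, without colonic library 1 it was 4.83 and without splenic library 2 it was 4.82. Igkv12-46 stood at 564 and 19.8 CPM against 6.09 and 8.72 CPM. Its log2 fold change of 5.31 ± 1.39 (adjusted p = 0.0157) became 1.41 without colonic library 1 and 6.25 without colonic library 2, and limma gave an adjusted p of 0.143. Igkv8-21 rose by 4.90 (3.83 without colonic library 2) and Igkv10-96 by 3.17. Igkv8-27, which came second in kappa use in each splenic library, did not pass the test. It stood at 38.9 and 1.23 CPM in the colon against 20.3 and 19.4 CPM (0.04 ± 1.05, adjusted p = 0.975). Without colonic library 1 its log2 fold change was -4.02, and without colonic library 2 it was 0.96. Each of these fits leaves 1 colonic library, so the spread between colonic libraries was not measured in it.

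The 5 members that were lower in colonic than in splenic MHCII+ cells were Iglv3, Ighv11-2, Igkv1-133, Ighv1-36 and Ighv1-66. Of these, Ighv11-2, Ighv1-36 and Ighv1-66 are named after their values were seen. Ighv11-2 had 0 counts in both colonic libraries and 219 and 133 in the splenic ones (4.80 and 3.75 CPM). With a floor of 3 counts a library it was at least 33.8-fold lower (adjusted p = 0.000442). It shares 67.5% of its stretches of 31 bases with Ighv11-1, which had no count in these colonic libraries either. In the 6 subset libraries Ighv11-2 stood between 0.0858 and 13.3 CPM. Igkv1-133 and Ighv1-36 also had no count in the colonic MHCII+ libraries and were at least 6.96-fold and 2.83-fold lower there (adjusted p = 0.00641 and 0.0168). Igkv1-133 was not missing from all colonic cells. It stood at 30.3 and 21.7 CPM in CD11c+, 5.75 and 17.8 CPM in CD11b+ and 0 and 0.600 CPM in CD11b+CD11c+ cells. The splenic libraries had 1.14 and 0.621 CPM. Ighv1-66 had 3 counts in colonic MHCII+ cells against 161 in splenic ones, a ratio of 33.7 (exact 95% interval 11.3 to 165, adjusted p = 0.00831). These floors and intervals cover counting error only.

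The 3 lambda segments went different ways. Iglv1 stood at 338 and 269 CPM in the colon against 37.1 and 33.6 CPM in the spleen (log2 fold change 3.12 ± 0.14, adjusted p = 9.73e-06). Iglv2 stood at 12.8 and 25.0 CPM against 17.7 and 11.7 CPM and did not pass the test (0.37 ± 0.36, adjusted p = 0.396). Iglv3 stood at 1.71 and 2.13 CPM against 18.3 and 20.7 CPM, 10.1-fold lower in the colon (-3.34 ± 0.22, adjusted p = 4.49e-05). Iglv3 shares no stretch of 31 bases with another V segment, whereas Iglv1 shares 41.4% of its stretches with Iglv2. Iglv1 took 95.9% and 90.8% of lambda use in the colonic MHCII+ libraries, 82.5% to 95.1% in the subset libraries and 50.8% and 51.0% in the spleen. Iglv3 took 25.0% and 31.4% in the spleen and 0.485% to 5.33% in the 8 colonic libraries.

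Genes of the antibody machinery from lists chosen alongside the members went different ways too. Of 12 immunoglobulin constant genes 11 were tested, of which 6 rose and 4 fell in the colon, with Igha at 11675 and 13181 CPM against 50.1 and 31.7 CPM and Ighm at 232 and 165 CPM against 1790 and 1938 CPM. In the plasma cell list 9 of 11 rose and 2 fell in the colon. Jchain, which joins units of secreted antibody, was among those that rose (1490.4 and 1338 CPM against 44.96 and 40.97 CPM). The 2 lower ones were Irf4 and Pou2af1, regulators that B cells use as well. Of 16 B cell genes 15 were lower and 1 (Blnk, a signalling adaptor) higher, with Ms4a1, which encodes CD20, at 3.17 and 3.57 CPM against 124 and 153 CPM. The summed B cell list stood at 227 and 222 CPM in the colon against 1936 and 2043 CPM in the spleen, and the plasma cell list at 2193 and 2009 CPM against 455 and 417 CPM. Of 7 tested genes of V(D)J recombination, the surrogate light chain and somatic mutation 4 were lower and 0 higher. Rag1 and Rag2, which cut V segments, had no count in the colonic MHCII+ libraries. How far these cell types account for the V segment levels was not tested.

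The 3 subset comparisons shared 1 fit of 6 libraries, and each pair of comparisons shares a group. Against CD11c+ cells, CD11b+ cells had 41 of 182 tested members lower and 1 higher, with a median log2 fold change of -1.06 over the members and -0.02 over all genes. Of all genes, 25.0% were called lower and 27.0% higher, so the share of members called lower, 22.5%, was near that of all genes, while few members were higher. CD11b+CD11c+ cells had 60 of 182 lower and 0 higher, with a median of -1.50 against -0.09 over all genes, where 22.5% were called lower and 20.4% higher. At an unadjusted p under 0.05 edgeR had 1 member higher, and DESeq2 called 1. CD11b+CD11c+ against CD11b+ cells gave 11 lower and 1 higher, with a median of -0.57 against 0.01 over all genes, where 5.84% were called lower and 3.79% higher. Here the members' share called lower, 6.04%, was near that of all genes.

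Several of these counts rested on single libraries. For CD11b+ against CD11c+ cells, 24 members were lower without CD11b+ library 2, and 8 were higher without CD11b+ library 1 or without CD11c+ library 2. For CD11b+CD11c+ against CD11b+ cells, 5 were lower without CD11b+ library 2 and 7 without CD11b+CD11c+ library 1. For CD11b+CD11c+ against CD11c+ cells, 40 to 83 were lower without any 1 of the 6 libraries.

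Among the segments named by rule, those with the largest fall from CD11c+ to CD11b+ cells were Ighv1-75, Igkv4-55 and Ighv1-81. The levels of Ighv1-75 and Igkv4-55 are uncertain, because only 38.9% and 19.3% of their stretches of 31 bases occur in no other V segment. Ighv1-81 stood at 819 and 1533 CPM in CD11c+ cells, 117 and 59.6 CPM in CD11b+ cells and 159 and 116 CPM in CD11b+CD11c+ cells. Both CD11c+ libraries were above all 4 others, which the rule for the largest falls required against the CD11b+ libraries. It was 13.3-fold lower in CD11b+ cells (log2 fold change -3.74 ± 0.46, adjusted p = 0.00154) and 9.08-fold lower in CD11b+CD11c+ cells (-3.18 ± 0.44, adjusted p = 0.002997). Ighv1-75 stood at 632 and 119 CPM in CD11c+ cells, 25.8 and 11.2 CPM in CD11b+ cells and 93.7 and 43.7 CPM in CD11b+CD11c+ cells. Its fall to CD11b+ cells (-4.33 ± 0.91, adjusted p = 0.00964) was -2.71 without CD11c+ library 1, -5.10 without CD11c+ library 2 and -5.06 without CD11b+ library 1, and the call was lost without CD11b+ library 2 (adjusted p = 0.0668). Igkv4-55 stood at 577 and 48.1 CPM in CD11c+ cells, 16.9 and 26.0 CPM in CD11b+ cells and 22.3 and 14.2 CPM in CD11b+CD11c+ cells. Without CD11c+ library 1 its falls of -3.84 and -4.16 (adjusted p = 0.0253 and 0.0244) became -1.17 and -1.49. Without CD11c+ library 2 they became -4.73 and -5.05. Leaving out a CD11b+ library lost the first call (adjusted p = 0.135 and 0.105), and leaving out a CD11b+CD11c+ library or CD11b+ library 2 lost the second (adjusted p = 0.0541 to 0.145).

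Ighv1-26, Igkv1-110 and Igkv1-117 were also widely used in the subsets. Ighv1-26 stood at 345 and 415 CPM in CD11c+, 226 and 184 CPM in CD11b+ and 214 and 194 CPM in CD11b+CD11c+ cells. It was 1.85-fold lower in CD11b+ (adjusted p = 0.00464) and 1.97-fold lower in CD11b+CD11c+ cells (adjusted p = 0.00407). Igkv1-110 stood at 561 and 665 CPM in CD11c+, 409 and 167 CPM in CD11b+ and 228 and 209 CPM in CD11b+CD11c+ cells. Its 2.12-fold difference in CD11b+ cells did not pass the test (adjusted p = 0.0550). The log2 fold change there was -1.88 without CD11b+ library 1 and -0.61 without CD11b+ library 2. The 2.97-fold fall in CD11b+CD11c+ cells passed the test (adjusted p = 0.0205), but the call was lost without either CD11b+CD11c+ library. Igkv1-117 stood at 567 and 634 CPM in CD11c+, 315 and 437 CPM in CD11b+ and 284 and 152 CPM in CD11b+CD11c+ cells, where the fall passed the test (-1.54 ± 0.31, adjusted p = 0.0105). With all 10 libraries in 1 fit, the calls of Ighv1-26 and Igkv1-117 in CD11b+CD11c+ cells were lost (adjusted p = 0.0564 and 0.0798). Ighv3-6, Igkv10-96 and Igkv8-27 passed the test in none of the 3 subset comparisons. Igkv8-27 stood at 159 and 822 CPM in the CD11c+ libraries, further apart than the means of the subsets.

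A few segments were nearly missing from CD11b+CD11c+ cells. Igkv4-70 had 0 and 5 counts there, 0 and 0.429 CPM, against 20.3 and 22.6 CPM in CD11c+ cells and 16.6 and 14.2 CPM in CD11b+ cells. It was lower than in both (adjusted p = 0.000683 and 0.00265). Igkv1-133 had 0 and 7 counts, 0 and 0.600 CPM, against 30.3 and 21.7 CPM in CD11c+ and 5.75 and 17.8 CPM in CD11b+ cells (adjusted p = 0.00302 and 0.0196). The second of these calls was lost without either CD11b+CD11c+ library (adjusted p = 0.113 and 0.0528) or CD11b+ library 2 (0.0792). Only 17.9% of the stretches of 31 bases of Igkv4-70 and 36.7% of those of Igkv1-133 occur in no other V segment, so both levels are uncertain.

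Ighv7-1 stood at 6.17 and 6.86 CPM in CD11b+CD11c+ cells against 76.6 and 45.8 CPM in CD11c+ and 17.7 and 39.2 CPM in CD11b+ cells (adjusted p = 0.00256 and 0.0284). The second call was lost without either CD11b+CD11c+ library (adjusted p = 0.174 and 0.126) or CD11b+ library 2 (0.104), where the fitted fall of -2.22 was -1.43. Igkv14-100, nearly free of shared stretches, stood at 10.1 and 15.4 CPM there against 38.4 and 44.2 CPM in CD11c+ and 32.7 and 45.8 CPM in CD11b+ cells (adjusted p = 0.00277 and 0.0104), and the second call was lost without CD11b+CD11c+ library 1 (0.0628) or CD11b+ library 2 (0.0724). The 1 member higher than in CD11b+ cells was Igkv8-28, at 24.2 and 20.8 CPM against 7.25 and 5.95 CPM (3.22-fold, adjusted p = 0.00420), a call lost with all 10 libraries in 1 fit (0.264). CD11c+ cells stood at 42.5 and 51.6 CPM, above both other subsets, and Igkv8-28 was 7.13-fold lower in CD11b+ cells (adjusted p = 0.000258). The 1 member higher in CD11b+ than in CD11c+ cells was Ighv15-2, named after its values were seen, with 125 and 79 counts against 1 and 0. The ratio was 285 with an exact 95% interval of 50.6 to 11322 for counting error only (adjusted p = 0.00739).

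Lambda segments were highest in CD11c+ cells too. Iglv1 stood at 916 and 772 CPM there, 368 and 103 CPM in CD11b+ and 134 and 199 CPM in CD11b+CD11c+ cells. Its fall to CD11b+ cells was -1.83 ± 0.55 (adjusted p = 0.0331). It was -3.03 without CD11b+ library 1 and -1.22 without CD11b+ library 2, and the call was lost without CD11c+ library 1 (adjusted p = 0.0720) or CD11b+CD11c+ library 1 (0.0546). The fall to CD11b+CD11c+ cells was -2.42 ± 0.57 (adjusted p = 0.0167), lost without either of that group's libraries (0.0921 and 0.0716). Iglv2 stood at 90.1 and 83.2 CPM in CD11c+ cells against 15.5 and 4.53 CPM in CD11b+ cells, a fall of -3.13 ± 0.52 (adjusted p = 0.00416) that was -4.25 and -2.50 without CD11b+ library 1 and 2. In CD11b+CD11c+ cells Iglv2 stood at 19.8 and 28.0 CPM, a fall of -1.95 ± 0.48 (adjusted p = 0.0206) whose call was lost without either of that group's libraries (0.108 and 0.0811) and by limma (0.0524). Iglv3 stood at 12.9 and 9.20 CPM in CD11c+ cells, 3.39 and 3.83 CPM in CD11b+ cells and 8.67 and 1.54 CPM in CD11b+CD11c+ cells, and passed the test in none of the 3 comparisons. Its log2 fold changes from CD11c+ to CD11b+ and to CD11b+CD11c+ cells were -1.61 and -1.17. Without CD11b+CD11c+ library 1 they were -1.62 and -2.94.

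Plasma cell and constant genes were also highest in CD11c+ cells. The summed plasma cell list stood at 4876 and 6069 CPM there, 2961 and 2536 CPM in CD11b+ cells and 2531 and 2242 CPM in CD11b+CD11c+ cells. Of its 11 genes 7 were lower and 1 (Prdm1, a regulator that myeloid cells use as well) higher in CD11b+ cells. In CD11b+CD11c+ cells 8 were lower and 2 higher, Prdm1 and Irf4. Of 12 constant genes, 7 and 8 were lower and 0 higher, with Igha at 26553 and 35022 CPM in CD11c+, 14054 and 11404 CPM in CD11b+ and 11465 and 9202 CPM in CD11b+CD11c+ cells. In the B cell list 3 of 15 rose and 3 fell in CD11b+ cells, where 27.0% of all genes were called higher and 25.0% lower. In CD11b+CD11c+ cells 3 rose and 5 fell, where 20.4% of all genes were called higher and 22.5% lower. Those that rose in both were Bank1, Blnk and Cd22, all known from signalling below the B cell receptor. Ms4a1 stood at 0.0858 to 1.67 CPM in the 6 libraries. In the epithelial list 6 of 9 rose in CD11b+ cells and 1 of 9 in CD11b+CD11c+ cells, and 0 fell. In the T cell list 9 of 10 fell and 0 rose in each, with a summed level of 768 and 299 CPM in CD11c+ cells against 115 to 171 CPM in the other 4 libraries. The part of these markers in the V segment differences was not tested.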

How the data were processed

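The labels describe poly(A)-selected, directional RNA libraries from 20000 to 50000 sorted cells each. Per the submitters' processing notes, kallisto 0.44.0, sleuth and mm10 were used. Index release and strand use were not given in the sources used here. The authors deposited estimated counts, TPM (transcript levels per length, scaled to a common total) and transcript lengths for each library, per the file headers. Of 66760 transcripts, 65747 (98.48%) matched GENCODE M21 by identifier, and estimated counts were summed over 22607 genes. Lengths were multiples of 3 for 88.95% of transcripts and were read as coding lengths.

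Gene counts were rounded to whole numbers and tested with the quasi-likelihood test of edgeR 4.0.16 in R 4.3.3 (filterByExpr, TMM), with 1 fit for the 4 MHCII+ libraries and 1 for the 6 subset libraries. P-values were adjusted by Benjamini-Hochberg over all genes tested, with a threshold of 0.05. The alternatives were DESeq2 1.42.0, limma 3.58.1 on log2(TPM + 1), RLE size factors, no count filter, all 10 libraries in 1 fit, a replicate block, and leaving out each library. Leaving out a library leaves 1 in its group, so the spread within that group is not measured. Calls and p-values from such fits do not cover it. Total counts of 12806139 to 41769042 a library, of which V segments held 24800 to 424134, set the precision.

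The named segments were all Iglv members, the 5 Ighv and 5 Igkv with the highest mean CPM, the 2 most used Ighv and Igkv of each group, and the 3 with the largest rise and fall in each comparison among called members that reach 20 CPM in their higher group and whose groups do not overlap. Segments leading a single library, and others marked so in the text, were chosen after their values were seen. The members and lists (constant, B cell, plasma cell, recombination, T cell, epithelial and myeloid genes) were chosen with earlier results of these data known.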

Additional observations from a re-analysis of the deposited data

How the results depend on the processing

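Over the other settings 79 to 122 V segments were higher in colonic than in splenic MHCII+ cells, and 89 to 112 when 1 library was left out. The number lower was 4 to 17 when 1 library was left out. For CD11b+ against CD11c+ cells, the number higher was 4 with no count filter, 2 by DESeq2 and 2 by limma, and 1 to 8 when 1 library was left out. The number lower was 77 with no count filter and 24 to 61 when 1 library was left out. For CD11b+CD11c+ against CD11c+ cells, the number higher was 3 with no count filter, 1 by DESeq2 and 0 to 2 when 1 library was left out. For CD11b+CD11c+ against CD11b+ cells, the number higher was 3 with no count filter, 0 with all 10 libraries in 1 fit and 1 to 6 when 1 library was left out. The number lower was 21, 6 and 5 to 16 under the same settings, and 22 by DESeq2. No filter tests more genes, and leaving out a library fits fewer samples. The cause of the other shifts was not tested.

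Deviations of same-numbered subset libraries were correlated over 14225 genes. The values were 0.005 for CD11b+ with CD11b+CD11c+, -0.053 for CD11b+ with CD11c+ and 0.333 for CD11b+CD11c+ with CD11c+ cells. The last pair of subsets was also closer in V segment use between same-numbered libraries. The main fit had no block, and whether the numbers pair libraries was not tested. With a replicate block, 2 members were higher and 49 lower in CD11b+ than in CD11c+ cells, 0 and 69 in CD11b+CD11c+ than in CD11c+ cells, and 3 and 12 in CD11b+CD11c+ than in CD11b+ cells. No paired analysis was possible for the MHCII+ groups because the titles of both splenic libraries carry the number 1, so that the groups share only 1 number.

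In TPM the V segment share was 2.02% in colonic and 0.249% in splenic MHCII+ cells, 5.72% in CD11c+, 1.86% in CD11b+CD11c+ and 2.53% in CD11b+ cells. At a minimum of 1 count, 174.5, 201.5, 193.5, 176.5 and 187.5 members were detected in that order of groups, and at 1 CPM 146, 126.5, 167.5, 153 and 163. Of 1215 values of named segments under other settings, 1055 kept their call or lack of one, 69 gained a call, 90 lost one and 1 turned. That 1 was Igkv8-27 in colonic against splenic cells, at -4.02 without colonic library 1 and 0.96 without colonic library 2. A change of sign counted as a turn only where a call was made, so some of the 1055 may have changed sign. The 2 libraries a group limit the precision of each value.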

Other observations

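The annotation holds 4 further V genes whose symbols do not start with Ighv, Igkv or Iglv. Gm43218, on the minus strand of chromosome 6 between 70240427 and 70240972 (mm10), had 1 and 30 counts in the colonic MHCII+ libraries, 28 and 9 in the splenic ones, 14 and 9 in CD11c+, 10 and 6 in CD11b+ and 0 and 8 in CD11b+CD11c+ cells. Gm42543 had 4 counts in splenic library 2, Gm17472 had 1 count in CD11c+ library 2, and Gm20730 had none.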
